A study of Saccharomyces cerevisiae with 72 samples.

Results

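NOP1, NOP58, CBF5 and GAR1 encode core proteins of the small nucleolar ribonucleoproteins (snoRNPs) of budding yeast, Saccharomyces cerevisiae. All probes of these 4 genes on a splicing-specific microarray were taken, by gene symbol. Each gene had exactly 1 probe, so the genes make up 4 of 982 named genes and 4 of 1457 named probes. The arrays hybridised total RNA in 2 colours, and each comparison was made on pairs of arrays with the dyes exchanged. The 72 arrays form 36 such pairs in 11 groups.

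Of the groups, 5 are courses sampled at 6 times, with 12 arrays each. In the first, wild-type cells (WT) in 50 mM 3-amino-1,2,4-triazole (3-AT), an inhibitor of histidine synthesis, were set against matched untreated WT cells at 2, 4, 6, 10, 15 and 20 min. In the next, cells deleted for GCN2 (Dgcn2) in 50 mM 3-AT were set against matched untreated Dgcn2 cells at the same times. GCN2 is the kinase that senses amino acid shortage and induces GCN4 translation. Another course hybridised Dgcn2 cells in 3-AT directly against WT cells in 3-AT. The prp8-1 course compared the mutant, labelled 37C[YPD], with WT at 37C, for which no medium is named, from 2 to 20 min, so mutation and medium cannot be told apart. PRP8 is a core protein of the spliceosome. In the ethanol course WT cells in 10% ethanol were compared with matched untreated WT cells at 5, 10, 15, 20, 25 and 30 min. The other 6 groups are strains that lack a factor of RNA decay or transcription termination (Dxrn1, Dupf1, Dski2, Drtt103, Drrp6 and Drai1), each compared with its matched WT in the condition labelled MIN, with 1 pair of arrays each.

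The snoRNPs guide chemical changes to ribosomal RNA in the nucleolus and take part in its cleavage. Box C/D particles methylate the ribose of chosen nucleotides: Nop1, the yeast fibrillarin, is the methyltransferase, and Nop58 is a scaffold that binds the guide RNA together with Nop56 and Snu13. Box H/ACA particles convert chosen uridines to pseudouridine: Cbf5, the yeast dyskerin, is the pseudouridine synthase, and Gar1 binds it and is needed for the enzyme's turnover, beside Nhp2 and Nop10. The genes of ribosome assembly are known in yeast as a large group whose transcripts fall together in many stresses. These arrays measured transcripts of the protein genes, and no probe named as a box C/D or box H/ACA guide RNA was found.

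Values are deposited log ratios, taken as log2, averaged over the spots of a probe and over both dyes of a pair. Array medians lay between -0.0355 and 0.0346. Both arrays of each pair correlated positively over all probes, by 0.18 to 0.92, so the weakest pair agreed little. The probe of the deleted gene read -4.35 for GCN2, -3.23 for XRN1, -3.50 for UPF1 (under its other name, NAM7), -2.50 for SKI2, -4.01 for RRP6 and -2.37 for RAI1, so the ratios run as mutant over wild type. RTT103 has no probe. No deleted gene checked the direction in Drtt103, in prp8-1, in ethanol or in 3-AT against untreated cells. It is likely from the labels: mutant over WT in Drtt103 and prp8-1, and treated over untreated in the others. No course was repeated, and no label places its time points in separate cultures, so p-values reflect how far the times of a single course scatter, and this scatter may be technical.

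In WT cells in 3-AT, NOP1, NOP58 and CBF5 transcripts rose relative to untreated WT cells, and GAR1 was low at the late times, with a mean below 0 that passed under 10 of 15 alternatives. At 2, 4, 6, 10, 15 and 20 min the log2 ratio of NOP1 was 0.20, 0.15, 0.26, 0.52, 0.39 and 0.56. NOP58 stood at 0.19, 0.37, 0.51, 0.66, 0.66 and 0.62. Both box C/D genes were above 0 at all 6 times and higher from 10 min on than at 2 and 4 min. CBF5, of the box H/ACA class, gave 0.038, 0.19, 0.38, 0.55, 0.53 and 0.55. GAR1 gave 0.10, -0.16, -0.051, 0.013, -0.51 and -0.53. GAR1 was thus close to 0 until 10 min and low at both later times, when CBF5 was at 0.53 and 0.55.

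The course mean, tested with limma and Benjamini-Hochberg adjustment over all 1457 named probes at a threshold of 0.05, was 0.35 ± 0.039 (SE) for NOP1 (adjusted p = 0.000227). It was 0.50 ± 0.046 for NOP58 (adjusted p = 9.63e-05) and 0.37 ± 0.047 for CBF5 (adjusted p = 0.000344). Of all named probes, 32.8% were called higher in this course, so a single such call is common. GAR1 averaged -0.19 ± 0.053 (adjusted p = 0.0147), where 31.4% of probes were called lower. Without the 15 min or the 20 min pair the GAR1 mean was -0.13 (adjusted p = 0.0982) or -0.12 (adjusted p = 0.127) and no longer passed. It also did not pass without a slope term (adjusted p = 0.129), by exact sign-flip permutation (p = 0.188) or with the treated RNA in Cy5 alone (-0.11, adjusted p = 0.127), and GAR1 was above 0 at 2 of the 6 times. The change with time, given per 10 min, was 0.21 for NOP1 (adjusted p = 0.0370), 0.26 for CBF5 (adjusted p = 0.0317) and 0.22 for NOP58 (adjusted p = 0.0547), with 16.1% of probes called rising. The GAR1 slope was -0.34 per 10 min (adjusted p = 0.0203), with 15.4% of probes called declining. None of the 3 called slopes held when each time point was left out in turn: NOP1 lost its call without the 2, 4, 6, 15 or 20 min pair (adjusted p of those from 0.0576 to 0.137), CBF5 without 2, 4 or 15 min (0.0809 to 0.109) and GAR1 without 2, 15 or 20 min (0.0597 to 0.0965).

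**Figure D1:**
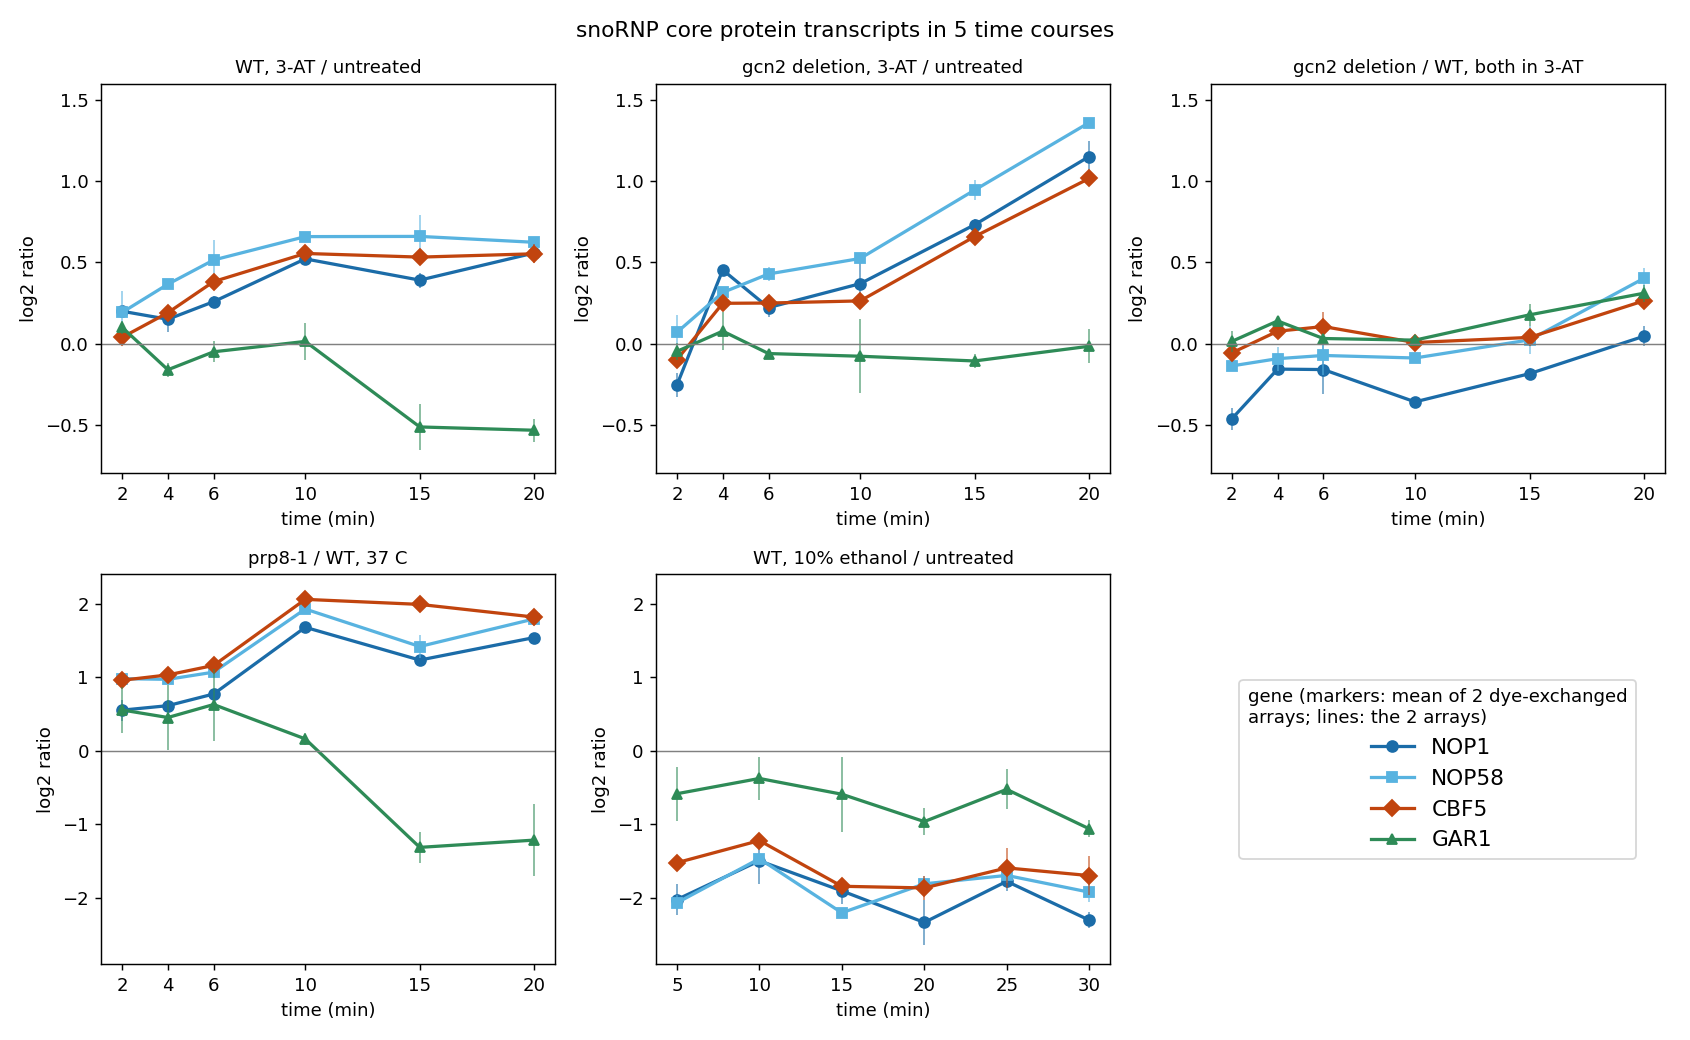
Log2 ratios of NOP1, NOP58, CBF5 and GAR1 (vertical axis) against time in min (horizontal axis) in the 5 courses; each point is the mean of a dye pair, and a thin line spans its 2 arrays. NOP1, NOP58 and CBF5 lie above 0 in prp8-1 and at or below -1.22 in ethanol, while GAR1 crosses 0 in prp8-1 between 10 and 15 min.

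Of 10 other snoRNP and snoRNA-maturation genes with 1 probe, 7 rose in WT cells in 3-AT and 1 fell, with a median of 0.37 against 0.034 over all 747 genes with 1 probe, of which 294 rose and 209 fell. RNT1, the RNase III that releases snoRNAs from precursors, was highest at 0.66 (adjusted p = 0.000289). NSR1, a nucleolin-like protein of the nucleolus, followed at 0.57 (adjusted p = 8.07e-05). SNU13, the box C/D protein that also binds the U4 RNA, was the one that fell, at -0.10 (adjusted p = 0.0179), though not below 0 at every time. In a list of 9 U3 processome and early rRNA-processing genes 8 rose and none fell (median 0.57), led by the helicase gene DHR2 at 1.07 (adjusted p = 0.000132). Of 20 genes for 60S and other assembly factors, which include helicases that also act elsewhere, such as PRP43 and MTR4, 19 rose and none fell (median 0.47), with NOP12 highest at 0.77 (adjusted p = 5.97e-05). The rise of NOP1, NOP58 and CBF5 was within the range of these lists.

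In Dgcn2 cells in 3-AT, NOP1, NOP58 and CBF5 rose as well, and reached their highest ratios at 20 min. NOP1 gave -0.26, 0.45, 0.22, 0.37, 0.73 and 1.15 over the 6 times. NOP58 gave 0.069, 0.31, 0.43, 0.52, 0.94 and 1.36. CBF5 gave -0.099, 0.25, 0.25, 0.26, 0.66 and 1.02. All 3 genes were at or below 0.069 at 2 min and above 1 at 20 min, a ratio that none of them reached in WT cells. These ratios are to untreated cells of the same strain and do not compare transcript levels between strains. Set directly against WT cells in 3-AT, Dgcn2 cells at 20 min gave 0.045 for NOP1, 0.40 for NOP58 and 0.26 for CBF5. GAR1 stayed between -0.11 and 0.076 at all 6 times. Course means were 0.45 ± 0.067 for NOP1 (adjusted p = 0.000311), 0.61 ± 0.039 for NOP58 (adjusted p = 1.65e-06) and 0.39 ± 0.046 for CBF5 (adjusted p = 6.65e-05), where 29.4% of named probes were called higher. The GAR1 mean was -0.039 ± 0.038 (adjusted p = 0.404), where 27.6% were called lower. The NOP1 and CBF5 means did not pass without a slope term (adjusted p = 0.0651 and 0.0564), while NOP58 passed under every alternative run. Slopes per 10 min were 0.62 for NOP1 (adjusted p = 0.00141), 0.67 for NOP58 (adjusted p = 4.89e-05) and 0.54 for CBF5 (adjusted p = 0.000419), with 23.7% of probes called rising. The GAR1 slope was -0.027 (adjusted p = 0.737).

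The difference between the strains was tested itself, as the response of Dgcn2 cells minus that of WT cells. NOP58 rose more steeply in Dgcn2 cells, by 0.45 ± 0.096 per 10 min (adjusted p = 0.0121), where 6.86% of named probes were called steeper. This call rests on the late times: without the 20 min pairs the difference was 0.26 (adjusted p = 0.328), and without the 15 min pairs 0.47 (adjusted p = 0.0501). The slope differences of NOP1 (0.41, adjusted p = 0.0681), GAR1 (0.31, adjusted p = 0.0683) and CBF5 (0.28, adjusted p = 0.122) did not pass. For the course mean none of the 4 genes passed: the differences were 0.099 ± 0.086 for NOP1 (adjusted p = 0.474), 0.10 ± 0.061 for NOP58 (adjusted p = 0.268), 0.015 ± 0.069 for CBF5 (adjusted p = 0.914) and 0.15 ± 0.065 for GAR1 (adjusted p = 0.127). Of all named probes 16.7%, or 244, were called by the mean in either direction; without slope terms limma called 0, with 209 at an unadjusted p under 0.05.

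Of the 10 other snoRNP genes, 7 rose and none fell in Dgcn2 cells (median 0.27), with RNT1 highest at 0.68 (adjusted p = 1.39e-06). All 20 of the 60S and other assembly factors rose (median 0.56), as did 8 of the 9 U3 processome genes (median 0.71), while 277 of all 747 genes with 1 probe rose and 194 fell (median 0.037). At 20 min the median of the assembly-factor list was 1.35 in Dgcn2 cells and 0.56 in WT cells, and that of the U3 processome list was 1.76 and 0.84 in these strains. NOP1, NOP58 and CBF5 stood at 1.15, 1.36 and 1.02 in Dgcn2 cells at that time. In the strain difference of the course mean 1 gene of each list was called, RVB1 (0.18, adjusted p = 0.0253), RCL1 and DBP9, all higher in Dgcn2 cells. Of all 747 genes with 1 probe, 67 were called higher and 78 lower, so 1 call in a list is no more than this background.

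On the arrays that set Dgcn2 cells directly against WT cells, both in 3-AT, NOP1 was lower in Dgcn2 cells and GAR1 was higher by a small mean that passed under 9 of 15 alternatives. Over the 6 times NOP1 gave -0.46, -0.16, -0.16, -0.36, -0.19 and 0.045, below 0 at 5 times. GAR1 gave 0.013, 0.14, 0.031, 0.021, 0.18 and 0.31, above 0 at all 6. NOP58 gave -0.14, -0.093, -0.073, -0.089, 0.022 and 0.40, and CBF5 gave -0.057, 0.076, 0.10, 0.0063, 0.038 and 0.26. All 4 genes had their highest ratio at 20 min. The means were -0.21 ± 0.049 for NOP1 (adjusted p = 0.00651), where 24.3% of named probes were called lower, and 0.12 ± 0.034 for GAR1 (adjusted p = 0.0218), where 26.8% were called higher. Neither NOP58 (0.0051 ± 0.040, adjusted p = 0.924) nor CBF5 (0.072 ± 0.036, adjusted p = 0.133) passed. The NOP1 call was lost on the arrays with the Dgcn2 RNA in Cy3 (-0.19, adjusted p = 0.0598) and by exact sign-flip permutation (p = 0.0625). The GAR1 call was lost without the 15 min pair (0.10, adjusted p = 0.0775), without the 20 min pair (0.076, adjusted p = 0.131) and without a slope term (adjusted p = 0.0973). The GAR1 call was also lost with the Dgcn2 RNA in Cy3 alone (0.081, adjusted p = 0.155), with arrays centred on genes with 1 probe (0.070, adjusted p = 0.126) and from the first printing place (0.099, adjusted p = 0.0686). The NOP58 slope was 0.25 per 10 min (adjusted p = 0.0207), where 13.9% of probes were called rising; it was 0.10 (adjusted p = 0.364) without the 20 min pair and 0.27 (adjusted p = 0.0510) without the 4 min pair. These arrays share RNA with both 3-AT courses and are no independent repeat of them. In the lists, 6 other snoRNP genes were higher in Dgcn2 cells and 1, SNU13, lower (-0.15, adjusted p = 0.00562), beside 8 and 0 of the U3 processome genes and 12 and 1 of the 60S and other assembly factors. Of all 747 genes with 1 probe, 287 were higher and 163 lower (median 0.043).

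In prp8-1 cells NOP1, NOP58 and CBF5 stood above WT at every time, and GAR1 parted from them late in the course. NOP1 gave 0.55, 0.62, 0.77, 1.68, 1.24 and 1.54 at 2, 4, 6, 10, 15 and 20 min. NOP58 gave 0.98, 0.97, 1.07, 1.93, 1.42 and 1.79, and CBF5 gave 0.96, 1.03, 1.16, 2.06, 1.99 and 1.82. The 3 genes were elevated at 2 min already and highest at 10 min. GAR1 gave 0.56, 0.45, 0.63, 0.16, -1.31 and -1.21. GAR1 was therefore higher in prp8-1 cells up to 10 min and lower in them at 15 and 20 min. Both dyes gave the late fall, with -1.52 and -1.70 on the arrays with the prp8-1 RNA in Cy5 and -1.10 and -0.73 on those with it in Cy3, whereas the early rise was larger in Cy5 (0.87, 0.89 and 1.12 at 2, 4 and 6 min) than in Cy3 (0.24, 0.019 and 0.14).

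Course means were 1.07 ± 0.11 for NOP1 (adjusted p = 7.85e-05), 1.36 ± 0.10 for NOP58 (adjusted p = 1.85e-05) and 1.50 ± 0.11 for CBF5 (adjusted p = 1.70e-05), in a course where 39.9% of named probes were called higher and 39.2% lower. The GAR1 mean was -0.12 ± 0.13 (adjusted p = 0.400) and changed sign to 0.12 without the 15 min pair and to 0.099 without the 20 min pair. The GAR1 slope was -1.20 per 10 min (adjusted p = 0.00683), where 15.9% of probes were called declining, and it passed under all 13 alternatives run; only 0.206% of named probes had a slope below it. The slopes of NOP1 (0.57, adjusted p = 0.0457) and CBF5 (0.59, adjusted p = 0.0453) passed and that of NOP58 did not (0.47, adjusted p = 0.0717), where 12.3% of probes were called rising. Each of both calls was lost without the 2, 4, 6 or 15 min pair, and that of NOP1 without the 20 min pair too (adjusted p of those from 0.0730 to 0.155).

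Among the other snoRNP genes 8 of 10 were higher in prp8-1 cells and 1 was lower (median 0.48, against -0.050 over all 747 genes with 1 probe, of which 252 were higher and 321 lower). NOP56, the partner of NOP58 on box C/D RNAs, averaged 1.34 (adjusted p = 1.04e-06) and NSR1 1.21 (adjusted p = 6.09e-05). The box H/ACA partners NHP2 (0.84, adjusted p = 1.82e-05) and NOP10 (0.43, adjusted p = 0.000832) were higher too. RVB2, an AAA+ ATPase of snoRNP assembly, was the one that was lower, at -3.13 (adjusted p = 1.40e-07), while its paralogue RVB1 was at 0.36 (adjusted p = 7.75e-05). In the U3 processome list 7 of 9 were higher (median 0.69), led by the helicase gene RRP3 at 1.18. In the assembly-factor list 17 of 20 were higher and 1 lower (median 0.80), from RLP7 at 1.39 to MTR4, the exosome helicase, at -1.42.

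In ethanol all 4 genes fell, and NOP1, NOP58 and CBF5 were among the lowest probes of the array. NOP1 gave -2.02, -1.49, -1.90, -2.33, -1.77 and -2.30 at 5, 10, 15, 20, 25 and 30 min. NOP58 gave -2.06, -1.47, -2.20, -1.81, -1.69 and -1.92, and CBF5 gave -1.52, -1.22, -1.84, -1.86, -1.59 and -1.69. These 3 genes were at -1.52 or below at 5 min already. GAR1 gave -0.58, -0.37, -0.59, -0.96, -0.52 and -1.06, below 0 at all 6 times and above the other 3 genes at each of them. Course means were -1.97 ± 0.097 for NOP1 (adjusted p = 3.17e-07), -1.86 ± 0.090 for NOP58 (adjusted p = 2.92e-07), -1.62 ± 0.076 for CBF5 (adjusted p = 2.60e-07) and -0.68 ± 0.074 for GAR1 (adjusted p = 3.36e-05). In this course 39.6% of named probes were called lower and 41.9% higher, so the call alone sets the genes little apart; by size, 0.961%, 1.37%, 2.13% and 10.5% of named probes averaged below NOP1, NOP58, CBF5 and GAR1, in that order of genes. No slope of the 4 genes passed (adjusted p from 0.677 to 0.978), in a test that called 2 probes, or 0.137%, with 107 at an unadjusted p under 0.05.

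Spots of NOP1 disagreed in size in ethanol: the SD among the 6 spots of an array reached 1.23, and the mean was -2.43 at the first printing place of the probe and -1.51 at the second. GAR1 averaged -0.97 on the arrays with the ethanol RNA in Cy5 and -0.39 on those with it in Cy3. Every one of these values was below 0. The median over all 747 genes with 1 probe was -0.16 in ethanol, and centring the arrays on these genes shifted each ratio up by about 0.17 and changed no call of the 4 genes there.

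The other snoRNP genes split in ethanol: 6 of 10 fell and 3 rose (median -0.50; 400 of all 747 genes with 1 probe fell and 195 rose). NSR1 at -1.61 (adjusted p = 1.20e-07) and NOP56 at -0.92 (adjusted p = 3.56e-06) were lowest. The 3 that rose were NOP10 at 0.74 (adjusted p = 4.91e-05), SNU13 at 0.74 (adjusted p = 4.94e-06) and NHP2 at 0.51 (adjusted p = 0.000133). Each class thus held members of both directions: NOP1, NOP58 and NOP56 fell and SNU13 rose in the box C/D class, and CBF5 and GAR1 fell and NHP2 and NOP10 rose in the box H/ACA class. NHP2 lies outside the rule for named genes and is given because it completes the box H/ACA core. In the U3 processome list 5 of 9 fell and 2 rose (median -0.30), from FAL1 at 0.45 to RRP5 at -0.61. In the assembly-factor list 15 of 20 fell and 3 rose (median -0.53), from RRP1 at 0.58 to HAS1 at -1.49. NOP1 and NOP58 lay below every gene of the 3 lists in course mean, and CBF5 lay close to NSR1.

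**Figure D2:**
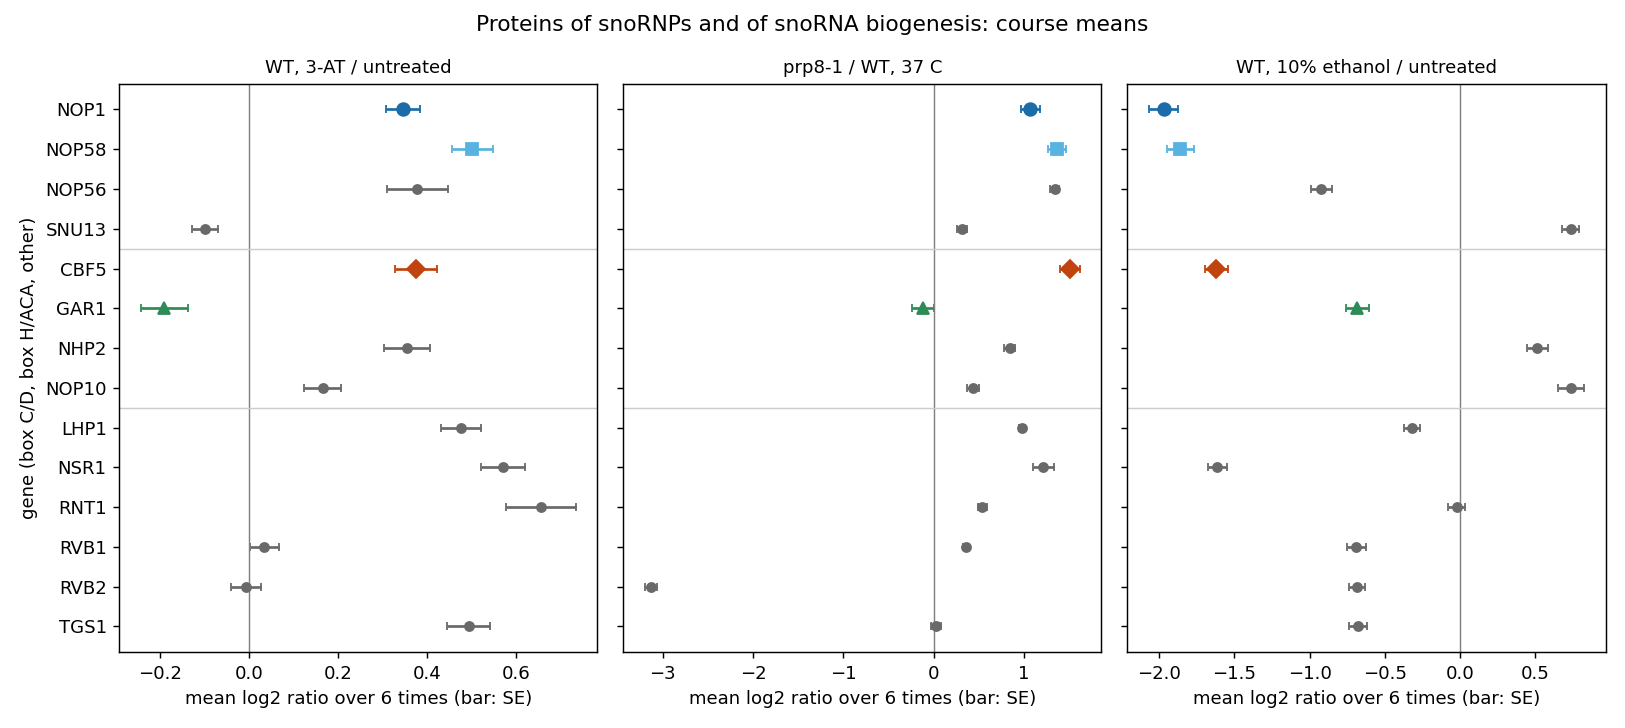
Course means (log2 ratio, horizontal axis) of the 4 genes and of the 10 other snoRNP genes (rows) in WT cells in 3-AT, in prp8-1 and in ethanol (panels), with bars for the SE of the fit. In ethanol NOP10, SNU13 and NHP2 lie above 0 and NOP1, NOP58, CBF5, GAR1 and NOP56 below it, and in prp8-1 RVB2 stands at -3.13.

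The deletion strains have 1 pair each and no replicate, so no test was made. In Dupf1 cells all 4 genes were below WT on both arrays, as were 29.1% of named probes. The arrays with the mutant RNA in Cy5 and in Cy3 gave -0.48 and -0.30 for NOP1, -0.32 and -0.34 for NOP58 and -0.30 and -0.41 for CBF5. GAR1 gave -0.082 and -0.94. UPF1 is the helicase of nonsense-mediated mRNA decay. In Dxrn1 cells, which lack the cytoplasmic 5′ to 3′ exonuclease, 3 of the 4 genes were below WT on both arrays, as were 37.5% of named probes. The values were -0.43 and -0.58 for NOP1, -0.23 and -0.37 for NOP58 and -0.19 and -0.25 for CBF5, while GAR1 gave 0.079 and -1.01. Within the spread of the array these falls were modest: 10.8%, 13.7% and 12.3% of named probes lay below NOP1, NOP58 and CBF5 in Dupf1 cells, and 17.2%, 27.8% and 33.5% in Dxrn1 cells.

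In the other 4 strains the pair means of NOP1, NOP58 and CBF5 stayed between -0.17 and 0.19. NOP1 was at 0.0018 in Drai1, 0.091 in Drrp6, 0.19 in Drtt103 and 0.18 in Dski2 cells. NOP58 was at -0.035, -0.11, 0.022 and 0.11 in these strains, and CBF5 at -0.063, 0.045, -0.020 and -0.17. For 6 of these 12 values the arrays of the pair had opposite signs. RRP6 is the nuclear exosome's exonuclease, which trims snoRNA ends, and in its deletion the 3 genes stayed near 0.

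**Figure D3:**
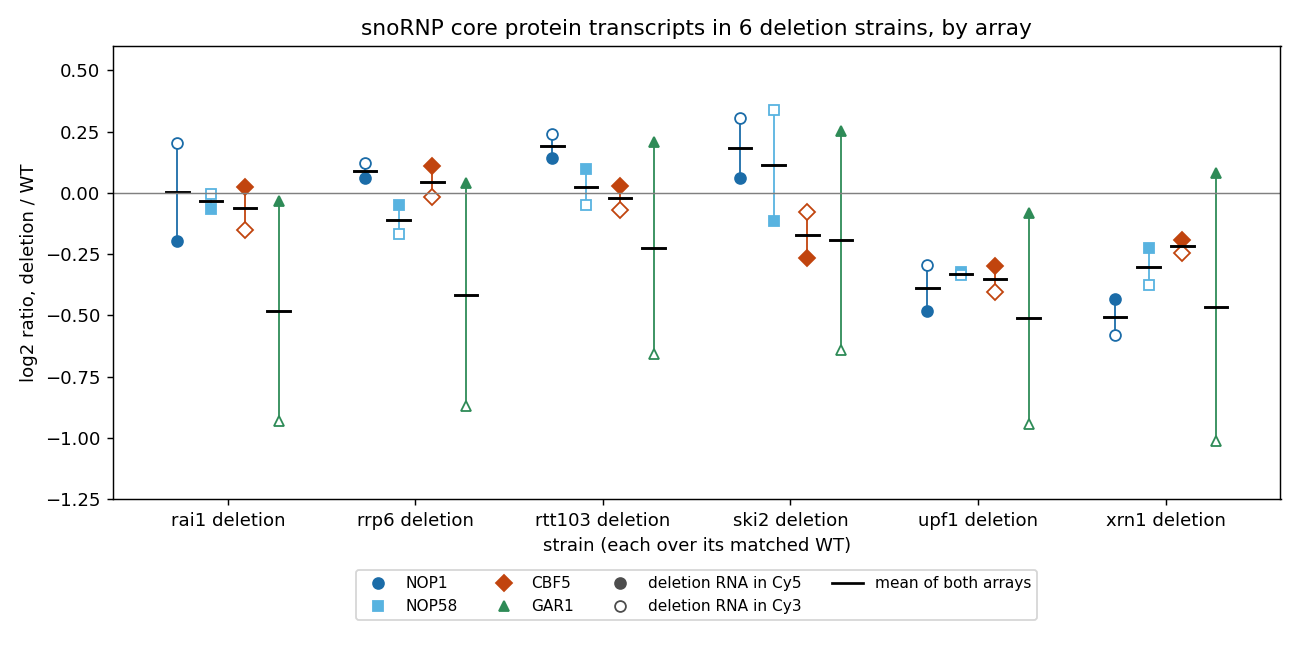
Log2 ratios of the 4 genes (vertical axis) in the 6 deletion strains (horizontal axis), with the arrays of each dye and the mean of the pair. NOP1, NOP58 and CBF5 lie below 0 on both arrays in Dupf1 and Dxrn1, and the GAR1 arrays of a pair lie 0.86 to 1.09 apart in all 6 strains.

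GAR1 read differently in the 2 dyes in every deletion strain. With the mutant RNA in Cy5 it gave -0.033 in Drai1, 0.040 in Drrp6, 0.21 in Drtt103, 0.25 in Dski2, -0.082 in Dupf1 and 0.079 in Dxrn1 cells. With the mutant RNA in Cy3 it gave -0.93, -0.87, -0.66, -0.64, -0.94 and -1.01 in the same strains. The gap of Cy5 minus Cy3 thus lay between 0.86 and 1.09 in all 6, with a mean of 0.92, larger in size than the mean gap of 97.1% of named probes, whose median size was 0.236. For the other 3 genes the gap of a pair lay between -0.45 and 0.17. The GAR1 pair means in the deletions, from -0.51 to -0.19, average these unlike readings; all 6 were below 0, as were all 6 Cy3 arrays and 2 of the 6 Cy5 arrays.

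In the courses the GAR1 gap averaged 0.16 in WT cells in 3-AT, 0.18 in Dgcn2 cells in 3-AT, 0.069 on the direct arrays, 0.21 in prp8-1 and -0.58 in ethanol. These means were smaller in size than the gap in any deletion, and that in ethanol had the opposite sign. In prp8-1 the gap changed sign over the course, between 0.98 at 6 min and -0.97 at 20 min.

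**Figure D4:**
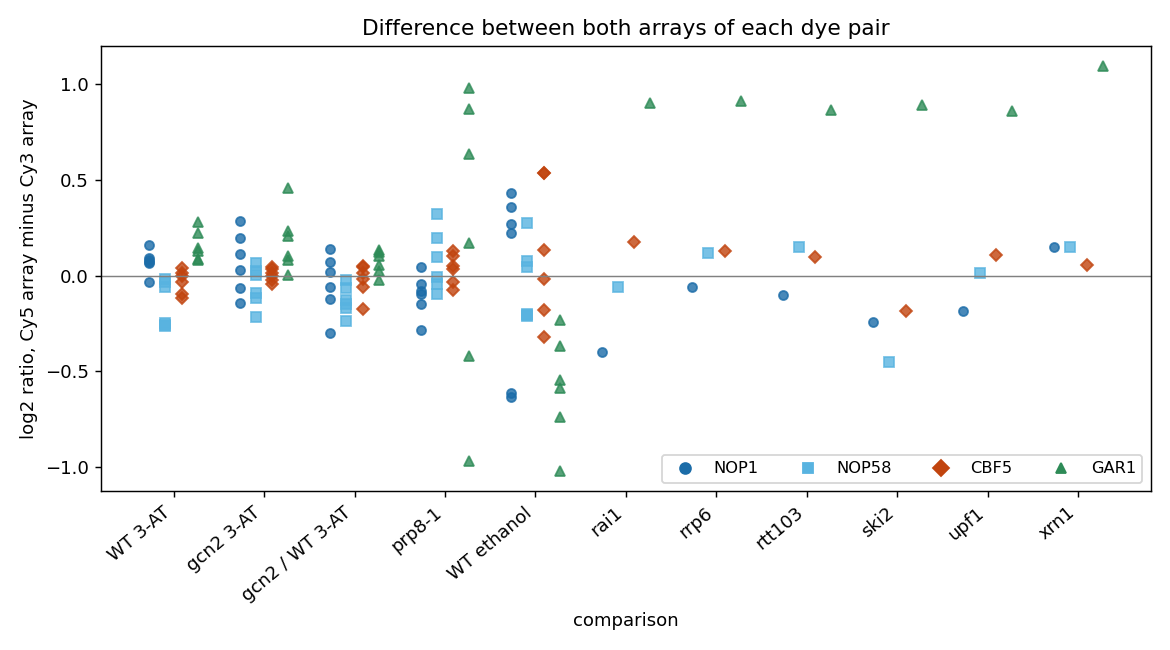
Gap between the arrays of a dye pair, as the log2 ratio with the RNA of the mutant or treated cells in Cy5 minus that in Cy3 (vertical axis), for the 4 genes in the 11 groups (horizontal axis); each marker is a pair. GAR1 stands at 0.86 to 1.09 in the 6 deletion strains, spreads from -0.97 to 0.98 in prp8-1 and lies below 0 at all 6 times in ethanol.

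The proteins of 1 particle were compared within each class. NOP58 minus NOP1 averaged 0.16 ± 0.11 (SD over 6 times) in WT cells in 3-AT, 0.16 ± 0.16 in Dgcn2 cells in 3-AT, 0.22 ± 0.12 on the direct arrays, 0.29 ± 0.087 in prp8-1 and 0.11 ± 0.30 in ethanol. NOP58 was the higher of both genes at all 6 times on the direct arrays and in prp8-1. GAR1 minus CBF5 averaged -0.57 ± 0.44 in WT and -0.43 ± 0.40 in Dgcn2 cells in 3-AT, 0.043 ± 0.070 on the direct arrays, -1.62 ± 1.32 in prp8-1 and 0.94 ± 0.21 in ethanol. GAR1 changed less than CBF5 at all 6 times in ethanol, and stood below CBF5 at all 6 in prp8-1. By an exact two-sided sign-flip permutation over the 6 times, 4 of these 10 differences reached the smallest p possible, 0.0312 (adjusted p = 0.0781). None passed after Benjamini-Hochberg adjustment over the 10. The smallest p can pass there only when most of the 10 differences reach it. The lack of a call therefore does not show that the genes of a pair moved alike.

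Over all 36 pairs NOP1, NOP58 and CBF5 had profiles close to each other, and GAR1 did not. The Pearson correlation was 0.984 between NOP1 and NOP58, 0.980 between NOP58 and CBF5 and 0.969 between NOP1 and CBF5. Among 746 other genes with 1 probe, the most alike to NOP1 after these were KAP123 (0.961), which encodes an importin, NOP2 (0.960), an rRNA methyltransferase gene, and IMD3 (0.948), of guanine nucleotide synthesis. After the other members NOP58 was most like NOP2 (0.968) and the helicase genes DED1 (0.957) and DBP3 (0.955). For CBF5, NOP2 (0.976) came after NOP58 but ahead of NOP1. DED1 (0.953) and PUS7 (0.948), another pseudouridine synthase gene, followed NOP1. CBF5 and PUS7 correlated by 0.162 in the 18 pairs of the 3-AT courses and by 0.979 in the other 18. GAR1 was most like CDC39 (0.688), TUP1 (0.665), SBP1 (0.636), SSA4 (0.633) and NPL3 (0.627). Within the 3-AT pairs these correlations with GAR1 were 0.517 for CDC39, -0.0068 for TUP1, 0.382 for SBP1, 0.828 for SSA4 and 0.678 for NPL3, and within the other pairs they lay between 0.519 and 0.691. Its correlation with NOP1, NOP58 and CBF5 was 0.337, 0.350 and 0.292. These are descriptions over pairs that share courses and RNA. In the 18 pairs of the 3-AT courses the correlation of GAR1 with the 3 genes lay between -0.40 and -0.36, and in the other 18 pairs between 0.30 and 0.34.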

How the data were processed

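The authors deposited 1 log ratio per spot, from 2-colour arrays of acid-phenol RNA with aminoallyl-dUTP labelling, per the labels' protocols; the sources used here name neither the log base, taken as log2, nor the background correction and normalization. The deposited log2 ratios came in 2 tables, of 6144 spots (4 per probe) for the 3-AT courses and 9216 spots (6 per probe) for the other groups. They may have been normalized separately, so tests were made within a table. No more than 1.12% of spots were missing on an array. Channel intensities were not used, so how far a spot lay above background is unknown, and precision is limited by how many arrays there are.

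Spots were averaged per probe and both arrays of a dye pair per time point, with no further centring. Of 1536 probes, 1457 had 1 gene symbol and 79 none; all 1457 matched RefSeq by Entrez ID, used for names alone. Each course was fitted with limma 3.58.1 in R 4.3.3 (lmFit and eBayes; intercept and centred time), tested on simulated data first. The difference of Dgcn2 and WT responses came from 1 fit of both courses. Alternatives were the median over spots, single dyes, centring, no slope term, sign-flip permutation, a replicate block, leaving out each time and, added after seeing the data, each printing place. Lists of other snoRNP, U3 processome, 60S and other assembly, and guide RNA genes (0 found) were counted over genes with 1 probe, without set tests. In each list up to 4 genes were to be named, the 2 highest and 2 lowest called means of 1 sign at all times; a few others are given to complete a particle or a count. The members and lists were chosen with earlier results of these data known.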

Additional observations from a re-analysis of the deposited data

Results flagged for a closer look

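On the arrays of Dgcn2 against WT cells in 3-AT, NOP58 at 20 min (0.40) stood apart from the other 5 times, with a gap to the nearest of them that took up 0.703 of the range of the course, above the critical value of Dixon's test for 6 values; 20 gene courses were examined, and chance gives about 1 such value in 20.

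The slope of NOP58 in 3-AT differed between Dgcn2 and WT cells by 0.45 per 10 min in the test of the difference itself (adjusted p = 0.0121 by limma). The ratios at 20 min were 1.36 in Dgcn2 cells and 0.62 in WT cells, each to untreated cells of the same strain. On the direct arrays the ratio at 20 min was 0.40. Without the 20 min pairs the slope difference was 0.26 (adjusted p = 0.328 by limma). The direct arrays share RNA with these courses, so this flag and the one above are not independent.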

How the results depend on the processing

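Each of 70 results was recomputed under the alternatives, 890 values in all, of which 779 kept their direction and call, or for a count stayed within 1.5 times. The cause of the other changes was not tested. The ethanol and prp8-1 means of NOP1, NOP58 and CBF5, the ethanol mean of GAR1, the WT 3-AT means of NOP1, NOP58 and CBF5, the Dgcn2 mean of NOP58, the Dgcn2 slopes of NOP1, NOP58 and CBF5 and the prp8-1 slope of GAR1 passed under every alternative run. For the means, the sign-flip p was set against 0.05 without adjustment, unlike the other alternatives. That p is 0.0312 for any gene of 1 sign at all 6 times.

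With the median over spots, the NOP58 slope in WT 3-AT passed (0.22), the CBF5 slope in prp8-1 did not (0.61), the NOP58 slope in ethanol became -0.00064 and 1 probe was called by slope in ethanol. On the arrays with the RNA of the mutant or treated cells in Cy5 alone, calls were lost in WT 3-AT for the GAR1 mean (-0.11) and the slopes of NOP1 (0.18), CBF5 (0.24) and GAR1 (-0.31), and in prp8-1 for the slopes of NOP1 (0.61) and CBF5 (0.62), while the NOP58 slope passed (0.53). There the GAR1 mean in Dgcn2 cells (0.051), the direct NOP58 mean (-0.059) and the CBF5 slope in ethanol (0.013) changed sign, and the slope called 0 probes in ethanol and 84 for the strain difference. In Cy3 alone the GAR1 mean in Dgcn2 cells passed (-0.13), the direct NOP1 mean (-0.19), GAR1 mean (0.081) and NOP58 slope (0.26) did not, and the direct slope called 141 probes. There the NOP58 slope in ethanol (-0.015), the strain difference of the CBF5 mean (-0.0035) and direct GAR1 minus CBF5 (-0.0036) changed sign, with 0 probes called by slope in ethanol and 128 by the strain difference of the mean.

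Centred on all named probes, the direct NOP58 mean was -0.0019. Centred on genes with 1 probe it was -0.040, the WT 3-AT slopes of NOP1 (0.15) and CBF5 (0.21) and the direct GAR1 mean (0.070) lost their calls, and the NOP58 slope in prp8-1 passed (0.51). From the first printing place alone, the NOP1 slope in WT 3-AT (0.18) and the direct GAR1 mean (0.099) did not pass and the strain difference of the CBF5 mean was -0.025. From the second, the NOP58 slope in WT 3-AT passed (0.21), the slopes of CBF5 in WT 3-AT (0.28), NOP1 in prp8-1 (0.51) and CBF5 in prp8-1 (0.60) did not, the direct NOP58 mean was -0.00041, the NOP58 slope in ethanol -0.073 and NOP58 minus NOP1 in ethanol -0.18, and the slope called 0 probes in ethanol.

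Without a slope term the means of GAR1 in WT 3-AT (-0.19), NOP1 (0.45) and CBF5 (0.39) in Dgcn2 cells and GAR1 on the direct arrays (0.12) kept their values and lost their calls. The number of probes called by the mean was then 472 in Dgcn2 cells, 485 on the direct arrays and 0 for the strain difference. By exact sign-flip permutation the means of GAR1 in WT 3-AT (-0.19, p = 0.188), NOP1 (0.45, p = 0.0938) and CBF5 (0.39, p = 0.0625) in Dgcn2 cells and NOP1 on the direct arrays (-0.21, p = 0.0625) did not pass.

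Leaving out 1 time at once gave slopes in WT 3-AT of 0.18 to 0.23 for NOP1, 0.14 to 0.35 for NOP58, 0.19 to 0.38 for CBF5 and -0.39 to -0.29 for GAR1, whose mean ran from -0.25 to -0.12. In Dgcn2 cells the GAR1 slope ran from -0.087 to 0.0057, and 368 to 677 probes were called by slope. On the direct arrays the NOP58 mean ran from -0.074 to 0.034, the GAR1 mean from 0.076 to 0.14, the NOP58 slope from 0.10 to 0.29 and the probes called by slope from 107 to 450. In prp8-1 the slopes ran from 0.52 to 0.71 for NOP1, 0.42 to 0.53 for NOP58 and 0.54 to 0.95 for CBF5, and the GAR1 mean from -0.27 to 0.12. In ethanol the NOP58 slope ran from -0.080 to 0.13, with 0 to 2 probes called. For the strain difference the mean ran from -0.022 to 0.15 for NOP58 and -0.075 to 0.076 for CBF5, and the slope from 0.29 to 0.55 for NOP1, 0.26 to 0.51 for NOP58 and 0.27 to 0.40 for GAR1. That difference called 66 to 357 probes by the mean and 19 to 168 by the slope.

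With the time point as a replicate block, the strain differences of the 4 genes kept their values and calls, with an adjusted p of 0.0303 for the NOP58 slope of 0.45, and 206 probes were called by the mean and 145 by the slope. Deviations at the same time correlated between both courses by 0.56, 0.50, 0.20, 0.087, 0.53 and 0.54 at 2, 4, 6, 10, 15 and 20 min. All were positive, so the courses shared deviations at most times. As one of these was under 0.1, the times were not taken as pairs, and the fit without the block was kept as the main one.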

Other observations

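The 3 sets of 3-AT arrays together imply the ratio of untreated Dgcn2 to untreated WT cells, as the direct ratio minus the difference of both responses. Over the 6 times this averaged -0.31 ± 0.23 (SD, n = 6 times) for NOP1, -0.10 ± 0.16 for NOP58, 0.057 ± 0.19 for CBF5 and -0.037 ± 0.17 for GAR1. The implied ratio was not steady over time. At 10 min it was -0.21, 0.046, 0.30 and 0.11 in that order of genes. At 15 min it was -0.53, -0.26, -0.089 and -0.23, and at 20 min -0.55, -0.34, -0.20 and -0.21. The courses share RNA, so these are values and no test was made.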
